A study of Canis lupus familiaris with 12 samples.

Results

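miR-375, miR-7 and miR-184 are microRNAs (miRNAs), short RNAs that guide Argonaute proteins to partly complementary sites in messenger RNAs and lower their output. All 3 have been studied in endocrine cells. miR-375 is the classic miRNA of pancreatic islets, where it restrains insulin secretion, and in breast cancer it is a marker of luminal, estrogen receptor-positive cells that has been linked to the response to tamoxifen (TAM). miR-7 is abundant in islets and in neurons, where it restrains growth factor and mTOR signaling. miR-184 is known from islets, the lens and the cornea, and in beta cells it follows glucose supply and acts on Argonaute2. The rows of the count table named exactly cfa-miR-375, cfa-miR-7 and cfa-miR-184 were taken, 3 of the 453 canine miRNAs listed, and all 3 were among the 284 with enough counts to be tested. They were selected by name and with the difference between the lines in these same libraries already known. That difference is therefore given below as a description, without a test of the 3 miRNAs.

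The libraries compare CHMm, cultured from a metastatic lesion (a pleural effusion) of a dog with a mammary gland tumor, with CHMmTAM, a TAM-resistant line derived from it. CHMmTAM was selected on rising drug for 10 months to a final 10 μM, was held at that concentration for 1 month, and was then kept in drug-free medium for 1 week. The sample labels give phenol-red-free DMEM with charcoal-stripped, steroid-depleted serum for both lines, and the methods of the study also list 4-hydroxytamoxifen in the medium without saying for which line. There were 3 small RNA libraries of each line, and all CHMmTAM libraries come from a single resistant line, so resistance and other changes over the months of culture cannot be told apart. Nothing in the labels says that the 3 libraries of a line came from separate cultures, and the spread between them may be technical.

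Library totals ran from 7512659 to 12482211 counts, at which 3 counts correspond to 0.24 to 0.399 CPM, the usual unit of counts divided by library depth. Over the 117 miRNAs above 50 CPM, the SD of the log2 differences between 2 libraries was 0.0909 to 0.152 within a line and 0.546 to 0.585 between the lines. No pair of libraries matched within sampling noise, the lowest chi-square per degree of freedom being 22.16. The mammary tumor label was checked on 7 epithelial miRNAs (the miR-200 family, miR-203 and miR-205), which together held 24457 to 26853 CPM of all counts in CHMm and 21958 to 23739 CPM in CHMmTAM, with none of them at 0. In the edgeR quasi-likelihood fit 0 of these 7 passed both thresholds used below, where 5.99% of the 284 tested miRNAs were called higher and 5.28% lower, while 3 were higher and 2 lower at an unadjusted p of 0.05. DESeq2 and limma-voom also gave 0. Markers of other cells were sparse or moderate. The 6 blood and serum miRNAs summed to 4.99 to 6.12 CPM in CHMm and 12.2 to 15 CPM in CHMmTAM, and 1 of the 4 tested, miR-486, rose. The 8 muscle miRNAs summed to 284 to 309 and 430 to 442 CPM, with miR-208a at 0, and 4 of the 5 tested rose against 5.99% of all tested miRNAs (miR-1, miR-133a, miR-133b and miR-133c). The 4 neuronal miRNAs summed to 1087 to 1120 and 1016 to 1093 CPM, with miR-137 at 0 and miR-124 at 1 count in all, and 1 of the 2 tested, miR-129, rose. Nearly all of both sums was miR-9, also in the islet list below, with scaled means of 1099 CPM in CHMm and 1053 CPM in CHMmTAM. miR-122, the liver miRNA, stood at 1.47 to 3.32 and 2.48 to 4.55 CPM. The part of these cells or of serum RNA in the results was not tested. In such bulk libraries, fewer cells that make a miRNA and less of it per cell cannot be told apart.

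The study measured miR-375 and miR-184, but not miR-7, by qPCR as well. From these same libraries it listed both as lower in CHMmTAM, and it described its qPCR results for selected miRNAs and lncRNAs as similar to sequencing. Its primers for miR-375 and miR-184 are shown because they define what that assay amplified. The primer for miR-375 has 23 bases and that for miR-184 has 25, and the longest stretch they share is 4 bases.
cfa-miR-375: ggacctgagcgttttgttcgttc
cfa-miR-184: ctaagtgttggacggagaactgata

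The genes differ in how they lie in the genome. RefSeq annotates the assembly UU_Cfam_GSD_1.0 with 5 loci for them, of which miR-375 and miR-184 have 1 each and miR-7 has 3. MIR375 lies between CRYBA2, a lens crystallin, and CFAP65, and MIR184 between ANKRD34C and RASGRF1, and no annotated gene spans either. MIR7-1 lies within HNRNPK, which encodes a ubiquitous RNA-binding protein. MIR7-2 lies between DET1 and AEN, and MIR7-3 within the lncRNA LOC111091398. The count table has a single row for miR-7, so its counts cannot be divided among the 3 loci.

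miR-7 was by far the most abundant of the 3. Scaled by the TMM method, which corrects library totals for differences in composition, it stood at 16105, 16051 and 15601 CPM in CHMm replicates 1 to 3 and at 11359, 11849 and 14346 CPM in the CHMmTAM replicates. All CHMmTAM libraries lay below all CHMm libraries, but the lowest CHMm library was 1.09 times replicate 3 of CHMmTAM. The means were 15919 ± 277 CPM (SD, n = 3) and 12518 ± 1602 CPM (SD, n = 3), and the fitted log2 fold change of CHMmTAM over CHMm was -0.35 (standard error 0.063), a level 21.4% lower. It ranked 12 by abundance in CHMm and 15 in CHMmTAM. Under upper-quartile scaling the log2 fold change was -0.59, which moved with all miRNAs, since that scaling put the median of all tested miRNAs at -0.18 instead of 0.06.

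Counts of miR-375 were 1168, 1850 and 1503 in the parental replicates and 549, 558 and 376 in the resistant ones. The scaled levels were 159.7, 159.3 and 168 CPM in CHMm and 43, 50.6 and 47.2 CPM in CHMmTAM. The lines were far apart, the lowest CHMm library lying 3.15-fold above the highest CHMmTAM library. Fitted over all libraries, the log2 fold change came to -1.79 (standard error 0.087), so that 28.9% of the parental level was left, and the rank by abundance went from 93 to 118 of the 284 tested miRNAs.

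miR-184 had the widest separation of the 3. Its counts were 383, 635 and 456 in CHMm against 75, 77 and 39 in CHMmTAM, or 52.4, 54.7 and 51 CPM against 5.87, 6.98 and 4.9 CPM. The lowest CHMm library lay 7.3-fold above the highest CHMmTAM library. The log2 fold change came to -3.13 (standard error 0.13), which left 11.4% of the parental level, and the rank went from 118 to 174. Even the shallowest estimate, 4.79 CPM of all counts in CHMmTAM replicate 3 with a 95% Wilson interval of 3.51 to 6.55 CPM, is well above the limit of 0.369 CPM that 3 counts set in that library. miR-184 was thus low but still detected in every CHMmTAM library.

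**Figure D1:**
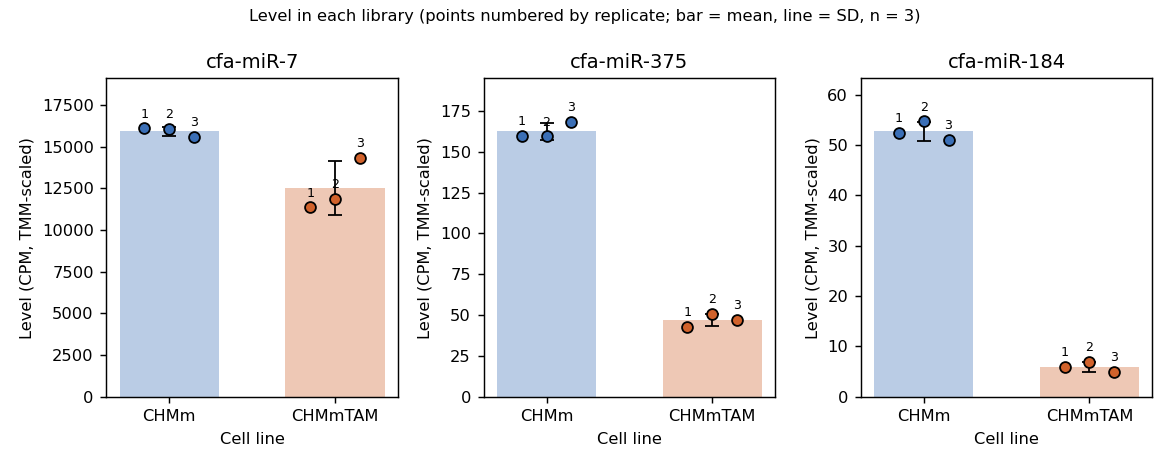
Level of each miRNA (CPM after TMM scaling, vertical axes from 0 and different in each panel) in the 3 CHMm and 3 CHMmTAM libraries; points are libraries numbered by replicate, bars are means and lines are SD. All CHMmTAM points lie below all CHMm points, with replicate 3 of miR-7 at 14346 CPM closest to the parental line.

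By the sequencing levels of both lines together, the order from the top was miR-7 in CHMm, miR-7 in CHMmTAM, miR-375 in CHMm, miR-184 in CHMm, miR-375 in CHMmTAM and miR-184 in CHMmTAM. Levels of different miRNAs also carry differences in how well each is ligated and counted, which the files cannot show. No neighbours in this order overlapped. miR-7 in its 2 lines came near through replicate 3 of CHMmTAM, as given above. The closest were miR-184 in CHMm and miR-375 in CHMmTAM. Their libraries spanned 51 to 54.7 and 43 to 50.6 CPM, and single libraries of the pair had overlapping 95% Wilson intervals (46.1 to 56.4 CPM of all counts for CHMm replicate 1 and 46.4 to 54.8 CPM for CHMmTAM replicate 2).

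The proportional and the absolute differences ran in opposite order. miR-184, with the lowest share left, accounted for a difference of 46.8 CPM between the means and miR-375 for 115 CPM, whereas miR-7, with the smallest proportional difference, accounted for 3401 CPM. Together the 3 miRNAs held 16134 ± 273 CPM (SD, n = 3) in the parental and 12571 ± 1600 CPM in the resistant line, and miR-7 made up 98.7% and 99.6% of that sum. Of all reads counted, miR-7 alone took 1.59% ± 0.031 (SD, n = 3) in the parental line and 1.25% ± 0.13 in the resistant line.

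Ratios between the miRNAs within a library do not depend on the scaling, and they compare the 3 directly. For each read of miR-375, there were 92.9 to 101 of miR-7 in CHMm and 234 to 304 in CHMmTAM. The ratio of miR-7 to miR-184 was 294 to 308 in CHMm and 1700 to 2930 in CHMmTAM. The ratio of miR-375 to miR-184 was 2.91 to 3.3 in CHMm and 7.25 to 9.64 in CHMmTAM. On the log2 scale these ratios had means of 6.62 ± 0.068, 8.24 ± 0.037 and 1.62 ± 0.09 (SD, n = 3) in CHMm and of 8.05 ± 0.19, 11.1 ± 0.41 and 3.0 ± 0.23 (SD, n = 3) in CHMmTAM. None of the 3 ratios overlapped between the lines, and the 3 miRNAs were lower in CHMmTAM by different factors. This separation follows from the differences already given, and the last ratio follows from the others. How many other pairs of miRNAs separate in this way was not counted, so the ratios are a description only.

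**Figure D2:**
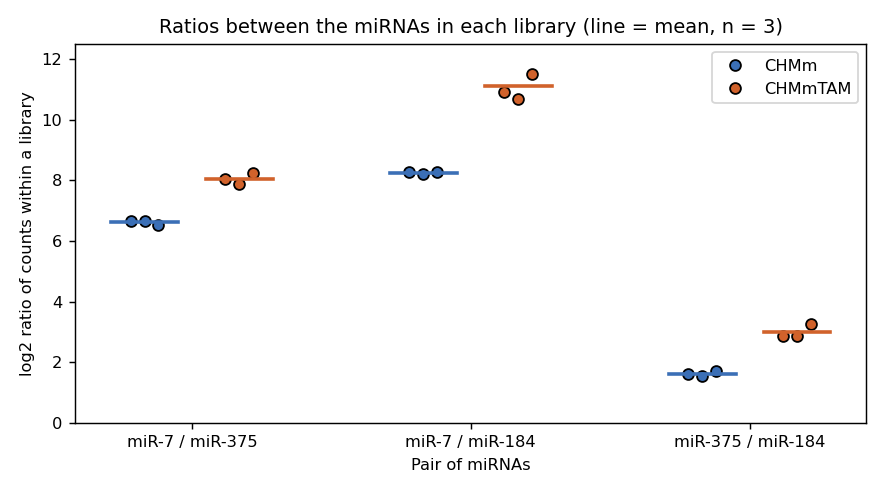
Log2 ratio of raw counts between each pair of the miRNAs within each library; points are libraries and lines are means (n = 3). Every ratio is higher in CHMmTAM than in CHMm, and the CHMmTAM points are more scattered, with SDs of 0.19 to 0.41 against 0.037 to 0.09.

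The replicate spread, which the choice of the miRNAs did not use, was wider in CHMmTAM than in CHMm for all 3. This difference rests on 3 libraries of each line and was not tested. In CHMm the coefficient of variation of the scaled level was 1.74% for miR-7, 3.03% for miR-375 and 3.55% for miR-184. In CHMmTAM it was 12.8%, 8.12% and 17.6%. For miR-184 counting error alone gives 4.59% in CHMm and 13.0% in CHMmTAM, so it was also higher in the resistant line. For miR-375 it gives 2.61% and 4.55%. With 3 libraries, whether the spread of these 2 miRNAs exceeds counting error was not tested. miR-7 is counted so often that counting error gives only 0.278%. In CHMm 106 of the 117 miRNAs above 50 CPM varied more than miR-7 and 91 more than miR-375, with a median of 4.5%. In CHMmTAM 27 varied more than miR-375. The spread of miR-7 in CHMmTAM was high among abundant miRNAs, since 5 of the 117 varied more and the median was 5.48%. It came from replicate 3, whose log2 level lay 0.20 above the mean of the line, and 2 of the 117 miRNAs deviated further in that library. miR-375 deviated there by 0.013, and 97 of the 117 deviated further. The higher level in that library was thus not shared by miR-375, and miR-184 was lowest there.

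Set beside all tested miRNAs, 2 of the 3 (miR-375 and miR-184) had a log2 fold change below -1, as did 8.1% of the 284. All 3 had every CHMmTAM library below every CHMm library, as did 22.9% of the 284. These shares are given as background only, since the 3 were chosen with this contrast known. Across the 284 miRNAs, 2 had a lower log2 fold change than miR-184, 7 than miR-375 and 61 than miR-7. Among the 117 above 50 CPM these numbers were 0, 2 and 20. miR-184 is not itself one of the 117, since its means of 52.7 CPM in CHMm and 5.92 CPM in CHMmTAM average below 50 CPM.

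**Figure D3:**
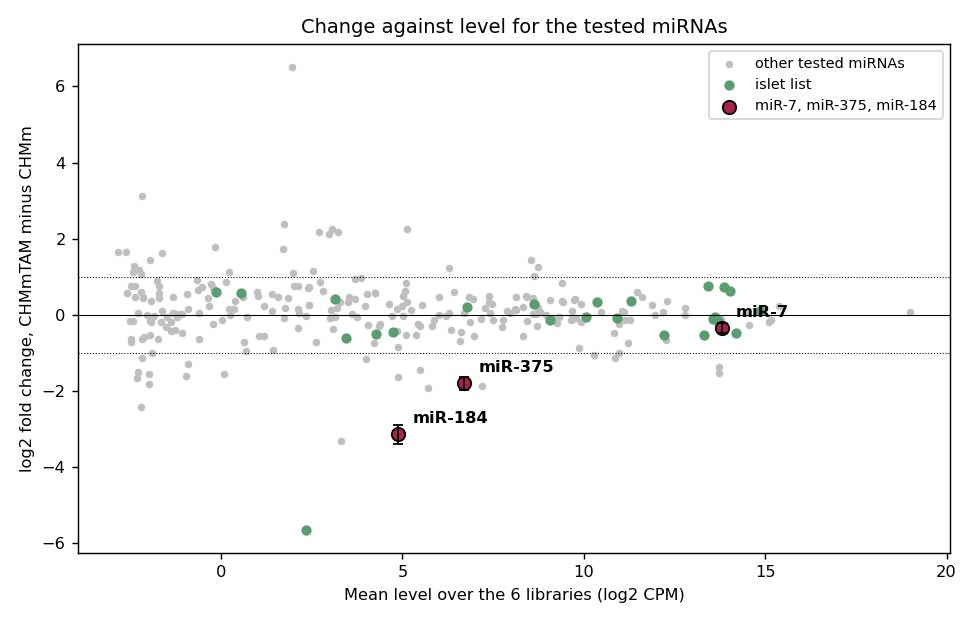
Log2 fold change of CHMmTAM over CHMm against the mean log2 CPM over the 6 libraries, 1 point for each of the 284 tested miRNAs; red points are miR-7, miR-375 and miR-184 with 95% intervals, green points the tested miRNAs of the islet list, and dotted lines mark -1 and 1. miR-184 at -3.13 and miR-375 at -1.79 lie apart from most miRNAs of similar level, while miR-7 at -0.35 lies among the abundant miRNAs close to 0. The intervals come from the standard errors and are no test, since the 3 miRNAs were chosen with this contrast known.

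The miRNAs whose pattern was most like each of them were found by the distance between log2 CPM profiles over the 6 libraries, each centred on its own mean, among 156 other miRNAs of at least 10 CPM. This measure includes the difference between the lines. Nearest to miR-375 were miR-210, the hypoxia-induced miRNA, at a distance of 0.167, miR-218 at 0.214 and miR-146b at 0.247, against a median of 2.22. Their log2 fold changes were -1.88, -1.92 and -1.63. Nearest to miR-7 were miR-362 at 0.197, let-7b at 0.224 and miR-497 at 0.225, against a median of 0.656. let-7b also matched miR-7 in level, with a parental mean of 16655 ± 700 CPM (SD, n = 3) and a resistant mean of 13365 ± 503 CPM. Among the 156, miR-184 had no near counterpart, the nearest being miR-218 at 1.58, miR-210 at 1.64 and miR-375 at 1.72. Without the limit of 10 CPM, a change made after seeing the data, miR-152 came nearest at 0.924. It has a mean of 9.84 CPM, just under the limit, and a log2 fold change of -3.31. Its counts were 127, 196 and 174 in the parental and 28, 14 and 15 in the resistant replicates.

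To see whether other miRNAs studied in endocrine cells moved alike, 26 more miRNAs named in studies of islets and beta cells were listed. Of these, 24 were tested, and miR-211 and miR-124 had too few counts. The list is not specific to endocrine cells, and 5 of the 26 belong to the epithelial miR-200 family. The list was chosen with earlier results of these data known, so its calls are given as a description. A miRNA was called where the FDR of the edgeR quasi-likelihood test, adjusted by Benjamini-Hochberg over all 284, was below 0.05 and its log2 fold change passed 1 or -1, the thresholds of the study. By this rule 1 of the 24 fell and 0 rose, against 5.28% and 5.99% of all tested miRNAs. The miRNA that fell was miR-204, which lowers MAFA, an activator of the insulin gene, in beta cells. Its counts were 69, 119 and 92 in the parental and 2, 3 and 1 in the resistant replicates. Setting each resistant library at 3 counts gives a level 34.1-fold lower. No miRNA of the list rose past both thresholds by DESeq2 or limma-voom either, and 8 were higher at an unadjusted p of 0.05 by edgeR.

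At FDR below 0.05 alone, 8 of the 24 were lower and 8 higher, against 18.7% and 25.4% of all tested miRNAs, and 8 passed in neither direction. Members of the same group, such as the miR-200 family or the miR-183 cluster, are not independent. The shares were also not matched for abundance, which affects how easily a change passes. The median log2 fold change of the list was -0.06, against 0.06 over all 284. The balance depended on the tool, with 6 higher and 10 lower at FDR below 0.05 by DESeq2 and 7 higher and 8 lower by limma-voom. For 10 of the list all resistant libraries lay below all parental ones, as for 22.9% of the 284, and for 7 all lay above, as for 82 of the 284. In the edgeR fit the log2 fold changes of the list ran from 0.77 for miR-183 down to -0.60 for miR-153, whose host genes in mammals encode secretory granule proteins, with only miR-204 lower. For miR-153 the parental mean was 13.1 ± 2.68 CPM (SD, n = 3) and the resistant mean 8.80 ± 0.479 CPM.

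**Figure D4:**
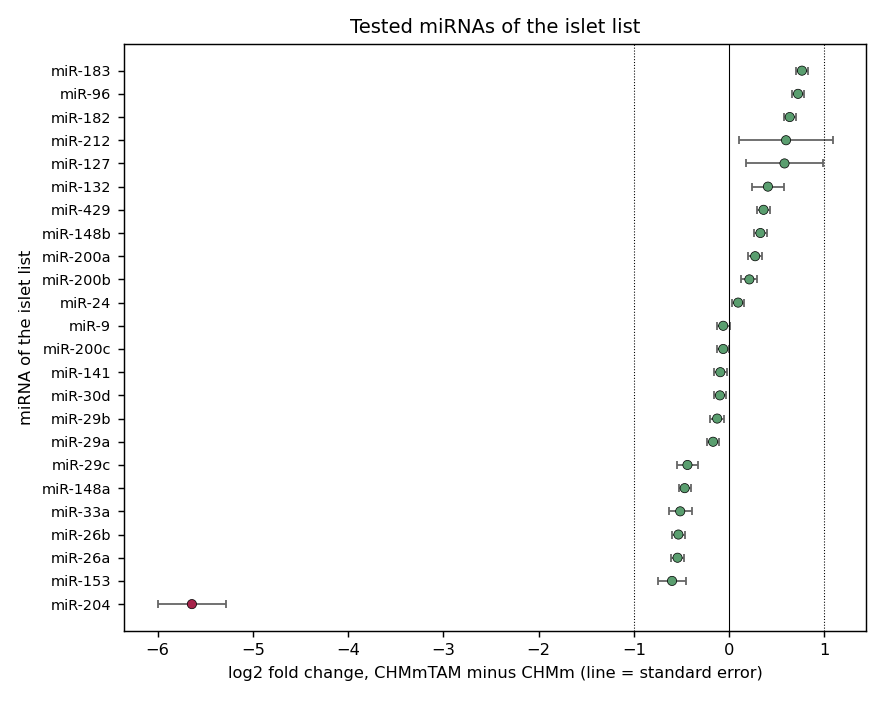
Log2 fold change of CHMmTAM over CHMm for the 24 tested miRNAs of the islet list, ordered by value; lines are standard errors, dotted lines mark -1 and 1, and the red point is the miRNA past both thresholds. miR-204 stands apart on the left, and the other 23 lie between -0.60 and 0.77.

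A second list held 15 miRNAs studied for the estrogen receptor or the response to tamoxifen in breast cancer, 14 of them tested and 1, miR-26a, shared with the islet list. Of these, 2 fell and 1 rose past both thresholds, against 5.28% and 5.99% of all tested miRNAs. The 2 that fell belong to the same cluster, so they are not independent calls. miR-221 and miR-222, which act on the estrogen receptor and on the cell-cycle inhibitor p27, fell by 1.52 and 1.36 on the log2 scale (standard errors 0.065 and 0.064) (FDR = 8.96e-98 and 1.9e-82, edgeR quasi-likelihood test). miR-10b, known from invasion and metastasis, rose by 1.43 (standard error 0.074, FDR = 1.37e-70 from the same test). This list was also chosen with earlier results of these data known, so these FDRs describe the contrast and give no independent support. At FDR below 0.05 alone, 3 were lower and 5 higher, against 18.7% and 25.4% of all tested miRNAs, and DESeq2 gave 4 lower and 3 higher. The median log2 fold change was 0.06. The lowest of the 14, miR-221 at -1.52, lay above miR-375 at -1.79, a gap that was not tested.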

How the data were processed

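The file holds, as deposited, unnormalized read counts for each mature canine miRNA in each small RNA library. Per the labels, total RNA was extracted, miRNA was purified and HiSeq sequencing was used. The submitters' processing notes name BWA, HISAT2 2.0.4 and CanFam3.1 without saying for which libraries. The counting tool, trimming and the handling of reads with several matching miRNAs are not given in the sources used here, and could move counts between similar miRNAs. The 6 RNA-seq libraries were not analysed here.

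Counts were analysed with edgeR 4.0.16 in R 4.3.3. A total of at least 10 counts was required, which left 284 miRNAs. The lines were compared after TMM scaling with the quasi-likelihood test, and p-values were adjusted by Benjamini-Hochberg over the 284. The fit was tested on simulated data. Standard errors come from the coefficient and its F statistic. Wilson intervals (95%) and the limit of 3 counts cover counting error only. Alternatives used RLE, upper-quartile or total scaling, scaling without the 10 most abundant miRNAs, DESeq2 1.42.0, limma-voom (limma 3.58.1), other filters, omission of single libraries, a replicate block, and FDR alone.

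The 3 miRNAs, the lists and the markers were chosen with earlier results of these data known. The text names the 3 miRNAs, the called miRNAs of each list, the 3 nearest patterns of each among those of at least 10 CPM, and genes at their loci. miR-152, miR-183, miR-153, miR-26a, miR-127, miR-451 and the single markers were named after their values were seen. Other steps used Python 3.11.15, pandas 2.3.3, NumPy 2.4.6, SciPy 1.17.1 and matplotlib 3.10.9. Loci come from RefSeq names in an assembly other than the authors' build, so no coordinates are given. Mature miRNA sequences were not used here.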

Additional observations from a re-analysis of the deposited data

How the results depend on the processing

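The direction of miR-375, miR-7 and miR-184 held in each of the 10 alternatives and in the 6 fits that left out 1 library, and 15 of the 16 values of each miRNA stayed within 1 SD between replicates. The exception was upper-quartile normalization, with log2 fold changes of -2.04, -0.59 and -3.38, and it moved the median of all tested miRNAs from 0.06 to -0.18. Relative to that median, the values over the 10 alternatives ran from -1.87 to -1.85, from -0.43 to -0.40 and from -3.21 to -3.19. Subtracting the median removes any shift shared by all miRNAs. For alternatives that only rescale the libraries, these ranges are therefore narrow by construction. Leaving out each library gave -1.85 to -1.70, -0.44 to -0.26 and -3.26 to -3.02. For miR-7 the ends were without CHMmTAM replicate 3 and without CHMmTAM replicate 1. With the replicate block the values were -1.79, -0.35 and -3.14, and the deviations of same-numbered libraries correlated at 0.062, 0.46 and -0.31, so the numbers were not taken to pair the libraries.

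In the islet list, 8 were higher and 8 lower at FDR below 0.05 alone, and 0 were lower with at least 10 counts in every library, a filter that leaves miR-204 untested. Leaving out each library gave 0 to 1 higher, the gain being miR-127 without CHMm replicate 3 (log2 fold change 1.36). In the endocrine therapy list, 5 were higher and 3 lower at FDR alone, and leaving out each library gave 1 to 2 higher, the gain being miR-451 without CHMm replicate 1 (1.35). The replicate block changed no call in either list. Without the 10 CPM limit, an alternative chosen after seeing the data, the distance from miR-184 to its nearest pattern went from 1.58 to 0.924. Depth limits miR-184 most, with 39 to 77 counts per CHMmTAM library.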
